A study of Homo sapiens with 9 samples.

Results

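The 10 proteoglycan genes described here encode matrix proteoglycans (LUM, DCN, BGN, VCAN and HSPG2) and proteoglycans of the cell surface (SDC1, SDC2, SDC4, GPC1 and CSPG4). They were chosen by symbol, and each gene was read from its brightest probe set by mean log2 value, out of 11963 genes with one. The cells were HK-2, 1 immortalised line from human proximal tubule, and the study addresses epithelial to mesenchymal transition driven by TGFβ1. There were 3 groups of 3 arrays: cells at 0 h, called vehicle in the design text and untreated here, cells given TGFβ1 for 24 h and cells given TGFβ1 for 48 h. Each array held RNA pooled from the plates of 1 time point on 1 day, and arrays with the same replicate number share a run on a new passage. All groups grew in a medium with EGF, hydrocortisone, triiodothyronine and insulin, transferrin and selenium. No untreated cells at 24 h or 48 h were analysed here, so TGFβ1 and time in culture cannot be told apart. No source used here states the dose.

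Proteoglycans are proteins that carry long sulfated sugar chains, glycosaminoglycans. Chains of heparan, chondroitin and dermatan sulfate are attached to serines through a linker that starts with xylose. The chains bind growth factors, their receptors and other matrix molecules, and the core proteins set where the chains sit. Small leucine-rich proteoglycans such as decorin and biglycan bind collagen fibrils and TGF-beta itself, whereas syndecans span the membrane and link matrix to the actin cytoskeleton. In kidney epithelium, heparan sulfate proteoglycans are found at the cell surface and in the tubular basement membrane.

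Each value below is a log2 signal, and testing was limited to the 4368 genes that reached 4 or more on 3 or more arrays. Of the 10 proteoglycan genes 5 passed this filter (LUM, VCAN, SDC1, SDC2 and SDC4), and 5 lay below it on every array (DCN, BGN, HSPG2, GPC1 and CSPG4). Array medians lay between 2.20 and 2.23, and values near them cannot be told from background. The epithelial label was borne out in part: KRT18, a keratin of simple epithelia, was at 9.34 to 10.10 and the kidney transcription factor PAX8 at 6.41 to 7.39 over the 9 arrays, while the E-cadherin gene CDH1 was at 0.94 to 1.42 and the proximal tubule receptor genes LRP2 and CUBN at 1.24 to 1.85 and 1.33 to 1.64. Of 8 proximal tubule markers with a probe set, 1 passed the filter, SLC3A1, at 4.20 to 5.38. DPP4, from the same markers, was at 4.40, 2.78 and 4.34 in untreated cells and at 2.24 to 2.92 in treated ones. None of 7 fibroblast, 6 pericyte or smooth muscle, 5 endothelial or 4 leukocyte marker genes reached the filter, with highest values of 3.23, 3.50, 2.46 and 1.84. Among the epithelial markers EPCAM fell at both times (log2 fold change −1.27, adjusted p = 0.00116 at 24 h; −1.17, 0.00172 at 48 h), as did PAX8 (−0.60, 0.0233 and −0.81, 0.00496). KRT8, another simple keratin, lay wholly above untreated cells at both times, with differences of 0.65 (adjusted p = 0.064; 0.0123 with the replicate number as a block) and 0.46 (0.222; 0.0546), and KRT7 did so near background. KRT18 and KRT19 overlapped untreated cells at both times. Of the fibroblast genes COL1A1 lay wholly above untreated cells at both times while below the filter, with averages of 1.73 ± 0.39 without TGFβ1, 3.08 ± 0.10 at 24 h and 2.84 ± 0.53 at 48 h (SD, n = 3 each). The mean log2 value over the 7 fibroblast genes was 1.61 to 1.92 on untreated arrays, 1.74 to 2.06 at 24 h and 1.73 to 1.91 at 48 h. The part of these markers in the results below was not tested. These are bulk samples, in which fewer cells that express a gene and less RNA per cell cannot be told apart.

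Of the members, SDC4 alone passed the threshold in limma: syndecan-4, a heparan sulfate carrier of focal adhesions, fell at 48 h of TGFβ1. Over the arrays it stood at 8.31, 8.59 and 8.62 in untreated cells, 7.71, 8.14 and 8.30 at 24 h and 7.45, 7.87 and 7.64 at 48 h, in the order of replicates 1 to 3. All 48 h arrays lay below all untreated arrays, and within each run the order was untreated, then 24 h, then 48 h from high to low. The 24 h arrays lay below the untreated ones by a narrow margin, with a highest 24 h value of 8.303 against a lowest untreated value of 8.307. At 48 h the log2 fold change was −0.85 ± 0.19 (SE, 3 arrays per group), which is 1.81-fold lower, with a 95% interval of −1.28 to −0.43 and an adjusted p of 0.0336 in limma. At 24 h it was −0.46 (−0.88 to −0.03) with an adjusted p of 0.274, and 0.0464 with the replicate number as a block. The difference between 48 h and 24 h was −0.40 (−0.82 to 0.03, adjusted p = 0.781).

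Within runs 1, 2 and 3 SDC4 differed from untreated cells by −0.85, −0.72 and −0.99 at 48 h, and by −0.60, −0.45 and −0.32 at 24 h. The call at 48 h held in 4 of 12 settings that left out an array or a run. It held without 48 h replicate 2 and without any single 24 h array. It was lost when untreated replicate 1, 2 or 3 was left out (adjusted p = 0.0581, 0.0951 and 0.0851), when 48 h replicate 1 or 3 was left out (0.138 and 0.12), and when a whole run 1, 2 or 3 was left out (0.139, 0.148 and 0.252). The fold change stayed between −0.96 and −0.75 in all 12 of these settings. Leaving out a 24 h array cannot change this fold change and alters only the estimate of spread. With the replicate block the adjusted p at 48 h was 0.00295. SDC4 has a single probe set on this array, so no other set could be compared with it.

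The start regions of SDC4, the syndecan gene that fell, and of SDC1, the syndecan gene whose mean was not lower at either time, are shown so that their base composition can be compared. They are RefSeq windows of 300 bases (GRCh38.p14), from 250 bases before the transcription start to 50 after it, on the strand of the gene. SDC4 is at chr20:45348375-45348674 and SDC1 at chr2:20225426-20225725, both on the minus strand. Capitals mark the GC box, spelled GGGCGG, and the CAGA box, a Smad motif spelled CAGACA, each on either strand; neighbouring GC boxes may touch.
SDC4: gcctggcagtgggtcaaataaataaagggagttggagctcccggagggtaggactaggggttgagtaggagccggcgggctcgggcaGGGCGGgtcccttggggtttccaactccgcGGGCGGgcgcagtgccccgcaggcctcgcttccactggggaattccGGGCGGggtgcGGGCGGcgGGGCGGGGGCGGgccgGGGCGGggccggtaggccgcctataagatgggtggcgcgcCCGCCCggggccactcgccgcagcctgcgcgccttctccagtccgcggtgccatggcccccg
SDC1: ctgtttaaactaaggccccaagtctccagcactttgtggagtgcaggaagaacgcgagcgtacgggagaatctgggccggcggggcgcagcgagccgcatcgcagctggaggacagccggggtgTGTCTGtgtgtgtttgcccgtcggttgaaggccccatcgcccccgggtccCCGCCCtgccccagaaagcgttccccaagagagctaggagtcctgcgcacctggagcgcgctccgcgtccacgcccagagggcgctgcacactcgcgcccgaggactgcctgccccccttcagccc

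The SDC4 window held 8 GC boxes, 7 of them between 163 and 52 bases before the start, and no CAGA box. The SDC1 window held 1 GC box and 1 CAGA box, which lay 126 bases before the start. Windows were matched for 7 of the 10 genes (BGN, VCAN, HSPG2, SDC1, SDC4, GPC1 and CSPG4), and all 7 held a GC box, as did 45% of 35116 RefSeq windows. A CAGA box was in 3 of the 7 (HSPG2, SDC1 and CSPG4) and in 16.9% of all windows. An AP-1 site (TGANTCA, both strands) and a TATA box (TATAAA, both strands) were in 0 of the 7, against 7.71% and 11.5% of all windows. The SDC4 window held 33 CpG and the SDC1 window 27, against a median of 14 over all windows. These matches describe letters and no binding was measured.

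**Figure D1:**
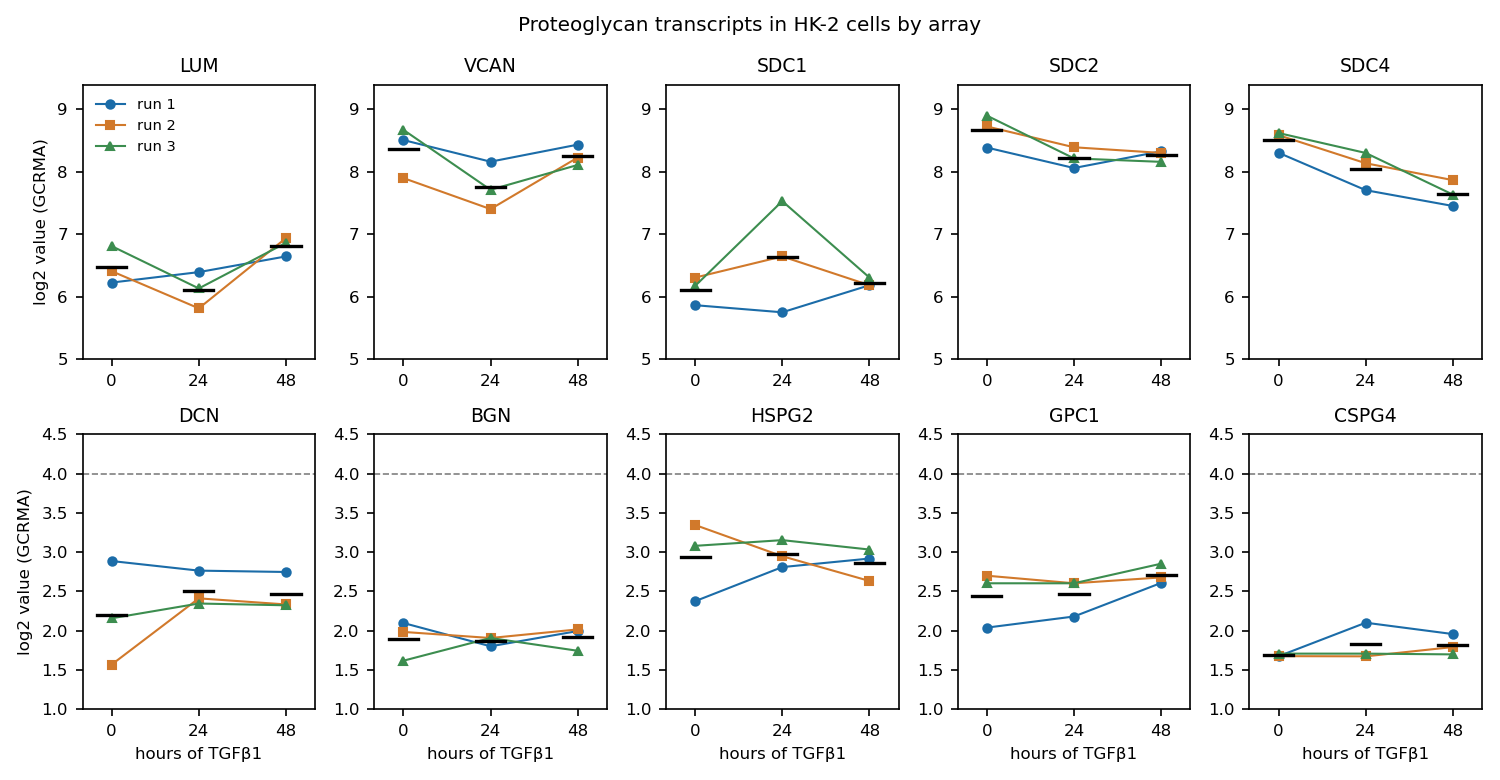
Log2 GCRMA values of the 10 proteoglycan genes on the 9 arrays (y axis) by hours of TGFβ1 (x axis), with lines joining the arrays of a run and black bars at the group means. The top row has the 5 tested genes and the bottom row, on a lower scale, the 5 genes that stayed below the filter of 4 (dashed); SDC4 lay below untreated cells in all 3 runs at both times.

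SDC2, syndecan-2, another transmembrane heparan sulfate proteoglycan, was lower in mean at both times but did not pass the threshold. The arrays gave it 8.39, 8.73 and 8.90 in untreated cells, 8.06, 8.39 and 8.22 at 24 h and 8.33, 8.30 and 8.16 at 48 h. The 48 h arrays all lay below the untreated ones, and the highest 24 h array overlapped the lowest untreated one. The log2 fold change was −0.45 ± 0.16 at 24 h (95% interval −0.81 to −0.09, adjusted p = 0.202) and −0.41 at 48 h (−0.77 to −0.04, adjusted p = 0.274). Between 48 h and 24 h the difference was 0.04 (−0.32 to 0.40).

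SDC2 had 3 probe sets above the filter, and they gave similar values, from −0.51 to −0.44 at 24 h and from −0.42 to −0.41 at 48 h. Of 9 differences within a run over these sets, all 9 were negative at 24 h and 8 at 48 h. The sets share their arrays and do not count as replicates. One set not used for the gene lay without overlap below untreated cells at both times, with values of 8.68, 8.81 and 8.53 in untreated cells, 8.19, 8.40 and 8.12 at 24 h and 8.24, 8.37 and 8.16 at 48 h. With every probe set tested on its own, its adjusted p was 0.147 at 24 h, where 4.36% of sets passed, and 0.178 at 48 h, where 4.14% did. With the replicate block it was 0.0282 and 0.0367, where 10.8% and 9.38% of sets passed. The other SDC2 sets did not pass with the block. The set used for the gene had adjusted p of 0.0876 at 24 h and 0.131 at 48 h, and the remaining set 0.092 and 0.189.

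SDC1, syndecan-1, the main syndecan of epithelia, had an unequal response between runs. It was measured at 5.87, 6.31 and 6.17 in untreated cells, 5.75, 6.65 and 7.53 at 24 h and 6.19, 6.19 and 6.31 at 48 h. The 24 h array of run 3 was the highest of the 9 and the 24 h array of run 1 the lowest. The mean difference at 24 h was 0.53 ± 0.36 (95% interval −0.29 to 1.34, adjusted p = 0.539), and it was 0.08 without the 24 h array of run 3. At 48 h it was 0.11 (−0.71 to 0.93, adjusted p = 0.97). The second SDC1 probe set gave 0.45 at 24 h and 0.40 at 48 h, neither past the threshold (adjusted p 0.393 at 24 h, 0.521 at 48 h, among all probe sets).

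VCAN, versican, a large chondroitin sulfate proteoglycan that binds hyaluronan, had its lowest mean at 24 h. Log2 values were 8.51, 7.90 and 8.67 in untreated cells, 8.16, 7.40 and 7.71 at 24 h and 8.44, 8.23 and 8.11 at 48 h. In every run the 24 h array was the lowest of the 3 on this probe set, although the groups overlapped across runs. The log2 fold change at 24 h was −0.60 ± 0.24 (95% interval −1.15 to −0.05, adjusted p = 0.265), and at 48 h it was −0.10 (−0.65 to 0.45, adjusted p = 0.952). Between 48 h and 24 h the difference was 0.50 (−0.05 to 1.05, adjusted p = 0.781).

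All 5 VCAN probe sets had negative means of the 24 h difference, from −0.64 to −0.37, and positive means of the difference between 48 h and 24 h, from 0.37 to 0.67. Over the 15 differences within a run, 13 were negative at 24 h and 14 were positive between 48 h and 24 h. The exceptions at 24 h were in run 1. None of the 5 sets passed the threshold at 24 h (adjusted p from 0.276 to 0.432 among all probe sets, 0.0661 to 0.164 with the replicate block). At 48 h against untreated cells the sets differed in sign, from −0.18 to 0.17.

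**Figure D2:**
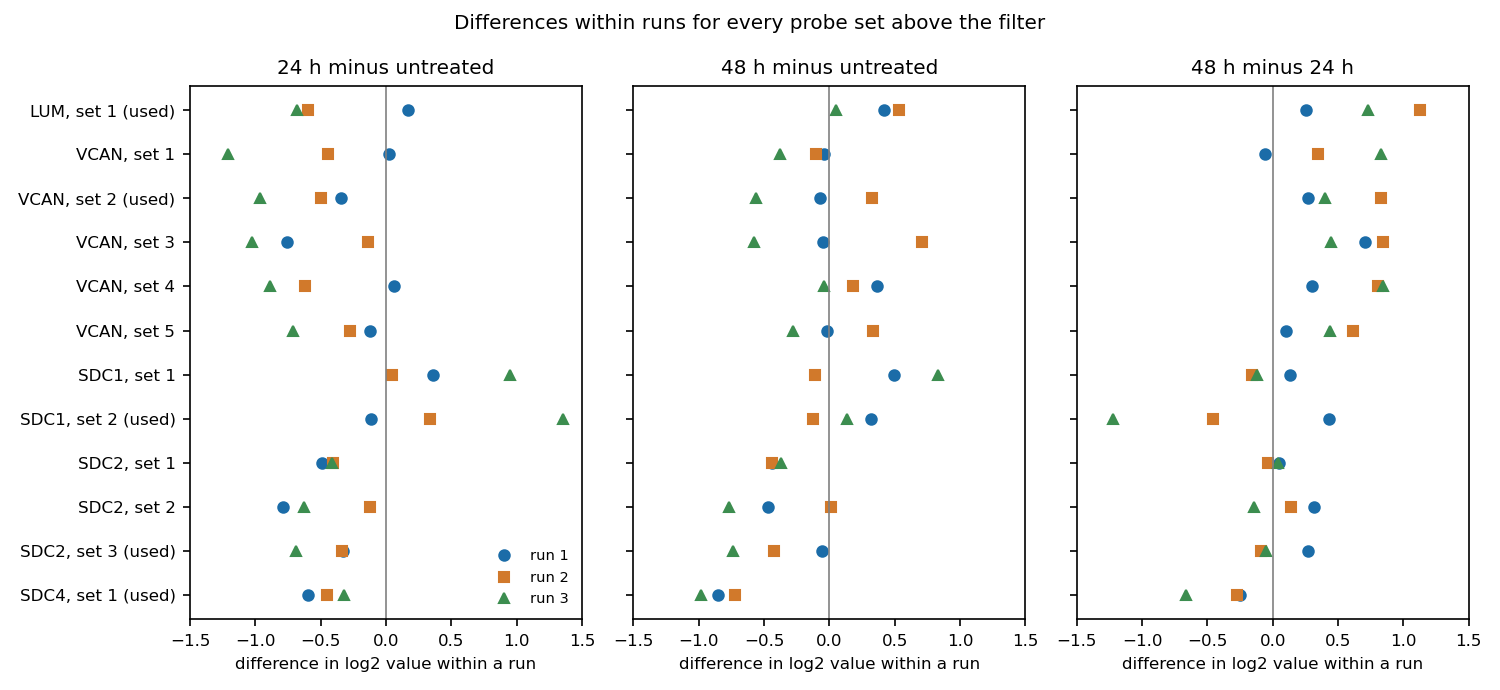
Differences in log2 value within each run for the 12 probe sets of LUM, VCAN, SDC1, SDC2 and SDC4 above the filter, with 1 marker per run and the set used for the gene marked. SDC4 and all SDC2 sets lay left of 0 at 24 h in every run, and 14 of 15 VCAN differences lay right of 0 between 48 h and 24 h. Sets of a gene share their arrays and do not count as replicates.

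LUM, lumican, a small leucine-rich keratan sulfate proteoglycan that organises collagen fibrils, was the one member of its class above the filter. Its log2 values were 6.23, 6.41 and 6.81 in untreated cells, 6.40, 5.82 and 6.13 at 24 h and 6.65, 6.94 and 6.86 at 48 h. All 48 h arrays lay above all 24 h arrays, while untreated arrays overlapped both. The difference between 48 h and 24 h was 0.70 ± 0.20 (95% interval 0.26 to 1.15, unadjusted p = 0.00591 in limma), and it did not pass the threshold over all genes (adjusted p = 0.781; 0.217 with the replicate block). Within runs it was 0.25, 1.13 and 0.73. Against untreated cells LUM was at −0.37 (−0.81 to 0.08, adjusted p = 0.422) at 24 h and at 0.33 (−0.11 to 0.78, adjusted p = 0.56) at 48 h.

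LUM lies in RefSeq in the gene order EPYC, KERA, LUM, DCN, all small leucine-rich proteoglycan genes. Its 3 neighbours were near background: EPYC, epiphycan, was at 1.12 to 1.85, KERA, keratocan, at 0.95 to 1.31 and DCN at 1.57 to 2.89 over the 9 arrays. LUM has 1 probe set here, and no second set was there to check it.

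The members below the filter were decorin (DCN) and biglycan (BGN), which bind TGF-beta, perlecan (HSPG2), the large heparan sulfate proteoglycan of basement membranes, glypican-1 (GPC1), which is held to the membrane by a lipid anchor, and CSPG4, the NG2 proteoglycan of pericytes. They had 13 probe sets among them, of which the highest value on any array was 3.35 (HSPG2, untreated replicate 2), and 89 of the 117 values lay at or below the median of their array. DCN averaged 2.20 ± 0.66 without TGFβ1, 2.51 ± 0.23 at 24 h and 2.47 ± 0.24 at 48 h (SD, n = 3 each). BGN averaged 1.90 ± 0.25, 1.87 ± 0.06 and 1.92 ± 0.15 in the same order.

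HSPG2 averaged 2.93 ± 0.50 without TGFβ1, 2.97 ± 0.17 at 24 h and 2.86 ± 0.21 at 48 h. GPC1 averaged 2.45 ± 0.36 without TGFβ1, 2.46 ± 0.24 at 24 h and 2.71 ± 0.13 at 48 h, and CSPG4 averaged 1.68 ± 0.02, 1.83 ± 0.24 and 1.81 ± 0.13. For each of these genes the untreated and treated ranges overlapped on the set used. None of them was tested, and values so close to background limit what change could be seen. GPC1 had a 48 h range above its 24 h range, 2.61 to 2.85 against 2.18 to 2.60, within background.

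Over the 5 tested members, 0 passed the threshold at 24 h in limma, where 4.81% of the 4368 genes did, and 3 (VCAN, SDC2 and SDC4) had an unadjusted p under 0.05, as did 16% of genes. With the replicate block 1 passed (SDC4), where 11.5% of genes did. At 48 h SDC4 passed, 1 of 5, where 4.44% of genes did and 2.17% were lower, and SDC4 and SDC2 had an unadjusted p under 0.05, as did 13.9% of genes. The replicate block gave the same single gene at 48 h, where 10% of genes passed. Between 48 h and 24 h 0 members passed, as did 0% of all genes in limma with or without the block, and LUM had an unadjusted p under 0.05, as did 5.01% of genes. The F test over the 3 groups passed 0 of 5 (4.12% of genes), with SDC4 the closest at an adjusted p of 0.0768, and 1 of 5 with the block (SDC4, 0.00712, where 11.2% of genes passed).

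The median log2 fold change of the 5 tested members was −0.45 at 24 h and −0.10 at 48 h, against 0.02 at both times over all tested genes. SDC4 lay wholly below untreated cells at 24 h, as did 7.72% of genes, and SDC4 and SDC2 did so at 48 h, as did 8.31%. No tested member lay wholly above untreated cells, where 8.68% of genes did at 24 h and 9.75% at 48 h. LUM lay wholly above between 48 h and 24 h, as did 6.34% of genes, and none lay wholly below, as 6.25% did. The 24 h and 48 h comparisons share the untreated arrays and are not independent.

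**Figure D3:**
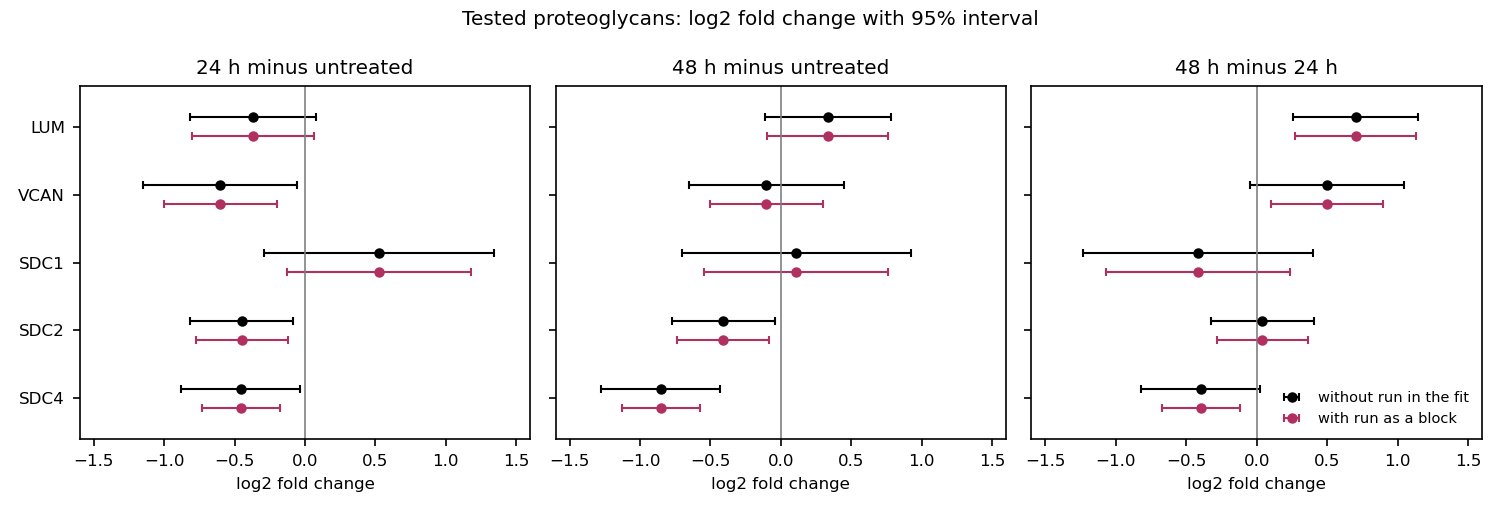
Log2 fold changes with 95% intervals of the 5 tested proteoglycan genes for 24 h minus untreated, 48 h minus untreated and 48 h minus 24 h, in the fit without the run (black) and with the run as a block (red). The 48 h interval of SDC4, −1.28 to −0.43, lay farthest below 0 among the intervals against untreated cells.

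Other proteoglycans and the enzymes that build and break their chains were read from 8 lists of 141 genes, of which 110 had a probe set with 1 symbol and 39 were tested. In limma 3 rose and 1 fell at 24 h, and the same 4 genes did so at 48 h, where 2.63% and 2.27% of all genes were higher and 2.17% lower at each time. The genes were SPOCK1, SLC26A2 and HS3ST3A1, higher, and UXS1, lower. Each of these 4 genes was read by 1 probe set, so no second set could check it. The median over the 39 genes was −0.10 at 24 h and −0.04 at 48 h.

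SPOCK1 encodes testican-1, a secreted matrix proteoglycan with heparan and chondroitin sulfate chains. Its log2 values were 6.77, 6.11 and 6.74 in untreated cells, 8.04, 7.81 and 7.64 at 24 h and 8.22, 7.98 and 8.15 at 48 h. Every treated array lay above every untreated one. It rose 2.45-fold at 24 h (1.29 ± 0.20, adjusted p = 0.00573) and 2.99-fold at 48 h (1.58, adjusted p = 0.00196). The call was lost at 24 h without run 1 (adjusted p = 0.114) or run 3 (0.0665) and at 48 h without run 1 (0.0728). It was the sole called gene among 4 tested of the 23 other matrix proteoglycan and linked genes with a probe set, a list in which aggrecan (ACAN) and fibromodulin (FMOD) were at background.

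SLC26A2 encodes a sulfate transporter that supplies the sulfate for the chains. SLC26A2 had 5.68, 5.83 and 4.80 in untreated cells, 7.73, 7.17 and 6.51 at 24 h and 7.58, 8.01 and 7.21 at 48 h. Treated and untreated arrays did not overlap, and run 3 was lowest at every time. It rose 3.24-fold at 24 h (1.70 ± 0.36, adjusted p = 0.0292) and 4.47-fold at 48 h (2.16, adjusted p = 0.00908). At 24 h the call held without 24 h replicate 3, untreated replicate 2, 48 h replicate 2 or 3, or run 3, and was lost without each other array or run (adjusted p up to 0.257). At 48 h it was lost without run 1 (0.137) or run 2 (0.0638).

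UXS1 makes UDP-xylose, the donor of the first sugar of the linker. UXS1 had 7.13, 7.01 and 6.77 in untreated cells, 6.50, 6.09 and 5.91 at 24 h and 6.21, 6.19 and 6.14 at 48 h. Treated arrays lay below all untreated ones. It fell by 0.80 on the log2 scale at 24 h (SE 0.17, adjusted p = 0.0295) and by 0.79 at 48 h (adjusted p = 0.0311). The call held without untreated replicate 3 or 24 h replicate 1 at 24 h, and without untreated replicate 3 or any single 24 h array at 48 h, and was lost without each other array or run (adjusted p up to 0.225 and 0.238). None of the other 6 tested linker and sugar supply genes passed, among them UGDH, which makes UDP-glucuronic acid, and PAPSS1 and PAPSS2, which make the sulfate donor.

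HS3ST3A1 encodes a sulfotransferase that places a rare sulfate on heparan sulfate. Its log2 values were 8.34, 8.25 and 8.70 in untreated cells, 9.09, 9.11 and 9.50 at 24 h and 9.28, 9.11 and 9.37 at 48 h. All treated arrays lay above all untreated ones, and it rose 1.75-fold at 24 h (0.81 ± 0.17, adjusted p = 0.0287) and 1.78-fold at 48 h (0.83, adjusted p = 0.0253). The call held without untreated replicate 3 at both times, without 24 h replicate 1 or 48 h replicate 2 or 3 at 24 h, and without any single 24 h array at 48 h; it was lost in the other settings that left out an array or run (adjusted p up to 0.246 and 0.354). HS3ST3B1, a close relative, was at 1.03 to 1.53 on its own probe set. The chain polymerase genes EXT1 and EXT2 did not pass (0.14 and 0.16 at 24 h, adjusted p = 0.689 and 0.835).

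**Figure D4:**
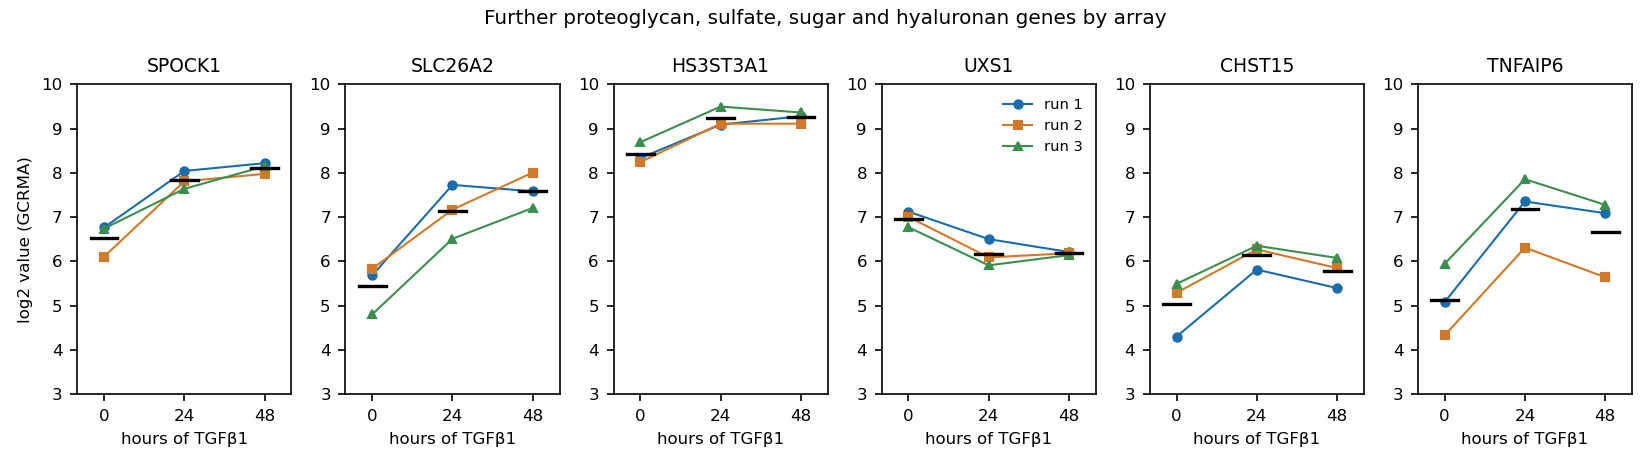
Log2 GCRMA values of 6 further genes on the 9 arrays by hours of TGFβ1, with lines joining the arrays of a run and black bars at group means. SPOCK1, SLC26A2 and HS3ST3A1 lay higher and UXS1 lower in all treated arrays than in untreated ones, and CHST15 and TNFAIP6 were higher than untreated cells within every run.

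With the replicate block 8 of the 39 genes passed at 24 h, 5 higher and 3 lower, where 5.95% and 5.52% of all genes did, and 10 passed at 48 h, 6 higher and 4 lower, where 5.22% and 4.81% did. The 7 genes added by the block are named after their values were seen. TNFAIP6, whose product TSG-6 binds hyaluronan and transfers proteins onto it, had log2 values of 5.08, 4.33 and 5.94 in untreated cells, 7.36, 6.31 and 7.86 at 24 h and 7.09, 5.64 and 7.28 at 48 h. Run 2 was lowest and run 3 highest at each time. Its difference at 24 h was 2.06 ± 0.55 (adjusted p = 0.0764; 0.000126 with the block), and at 48 h 1.55 (0.21 and 0.00044).

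CHST15, a sulfotransferase of chondroitin sulfate, had 4.30, 5.29 and 5.49 in untreated cells, 5.82, 6.27 and 6.35 at 24 h and 5.40, 5.85 and 6.08 at 48 h. Its difference was 1.12 ± 0.31 at 24 h (adjusted p = 0.0897; 0.00206 with the block) and 0.75 at 48 h (0.315 and 0.0146). DSE, the epimerase that turns chondroitin into dermatan sulfate, had 0.81 at 48 h (adjusted p = 0.45 without the block and 0.0492 with it). In the same order, the co-receptor NRP1, which can carry a chain, had −1.31 at 24 h (0.091 and 0.0335) and −0.84 at 48 h (0.351 and 0.159). The lysosomal sulfatase IDS had −0.75 at 48 h (0.22 and 0.0241). The syndecan-binding scaffold CASK had −0.74 at 24 h (0.0802 and 0.00538) and −0.51 at 48 h (0.271 and 0.0311). The cortical actin protein CTTN had −0.49 at 48 h (0.12 and 0.0337).

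Several other surface and matrix proteoglycans were measured above the filter without a call. GPC4, glypican-4, was at 7.64, 7.13 and 7.99 in untreated cells, 7.36, 6.71 and 6.91 at 24 h and 6.81, 7.10 and 7.12 at 48 h, with differences of −0.59 and −0.58 (adjusted p = 0.266 and 0.31). CD44, the hyaluronan receptor that can carry chains, had differences of 0.29 and 0.25 (adjusted p = 0.564 and 0.736). AGRN, agrin, a basement membrane heparan sulfate proteoglycan, had −0.30 and −0.16 (adjusted p = 0.386 and 0.777). SDC3, the remaining syndecan gene, lay at 1.91 to 2.83, and the TGF-beta co-receptor gene TGFBR3 at 1.32 to 1.86, both below the filter. By list, 0 of 5 other surface proteoglycans, 0 of 5 chondroitin and dermatan sulfate enzymes, 0 of 3 hyaluronan genes, 0 of 4 degradation genes and 0 of 6 syndecan partners passed in limma at either time; the block passed 1, 1, 1, 0 and 1 of them at 24 h and 0, 2, 1, 1 and 2 at 48 h.

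**Figure D5:**
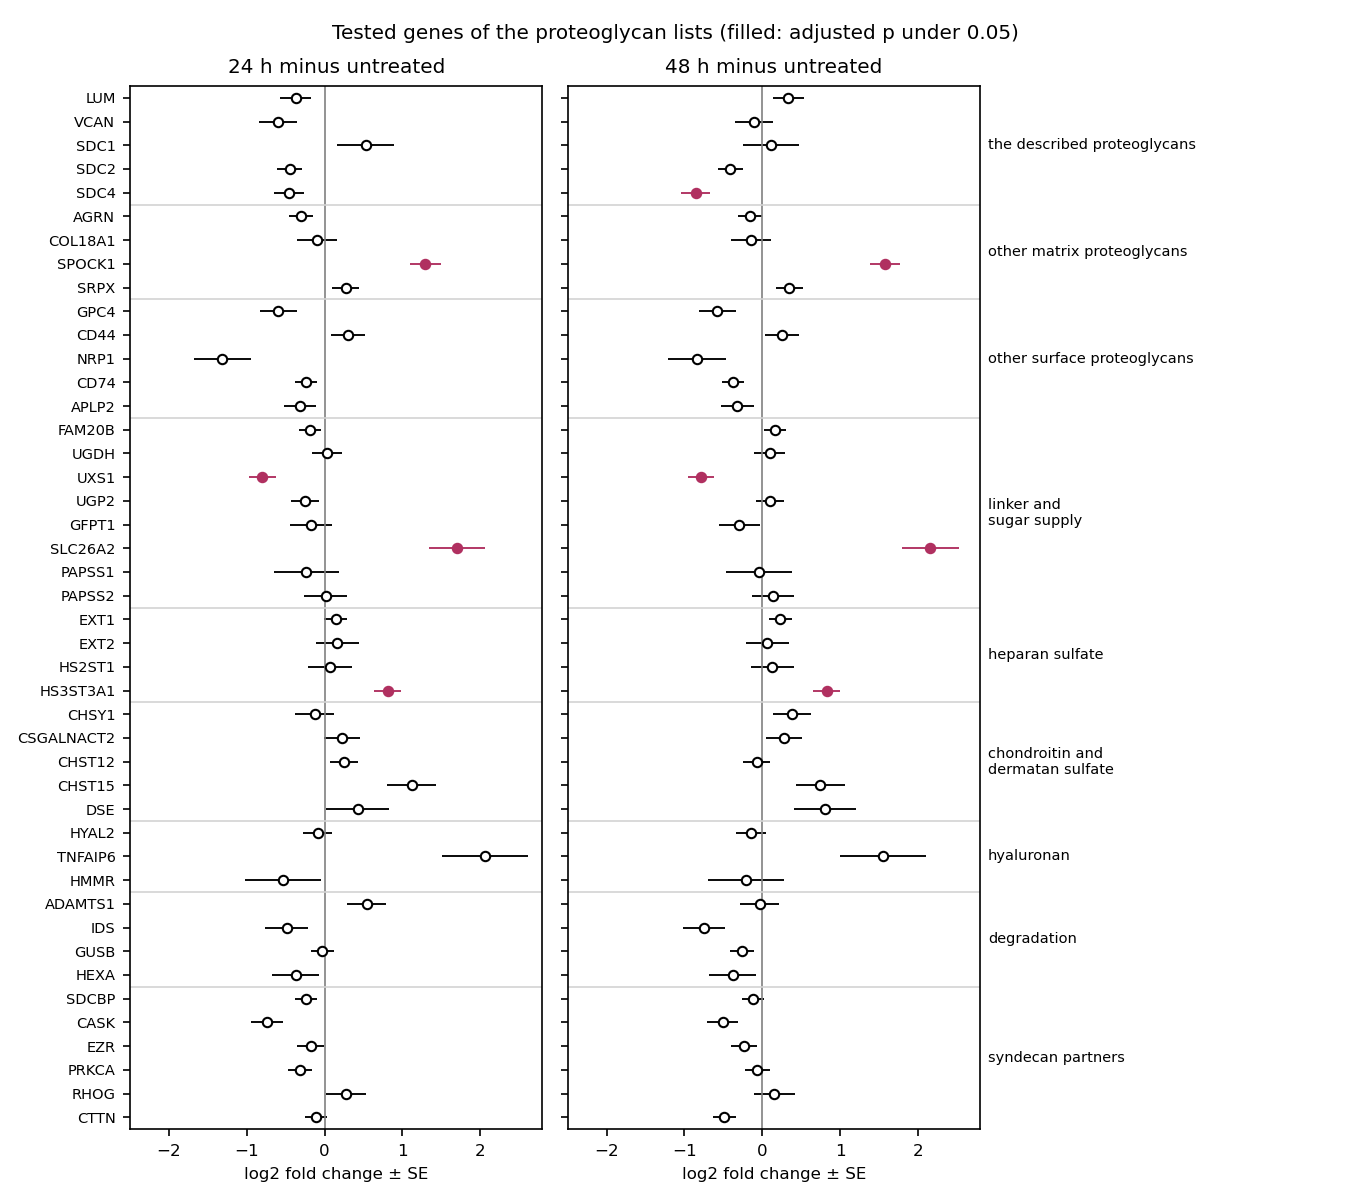
Log2 fold changes with SE of the 5 tested proteoglycan genes and the 39 further tested genes by list, at 24 h (left) and 48 h (right) against untreated cells. Filled red points passed an adjusted p of 0.05; SPOCK1, SLC26A2 and HS3ST3A1 lay to the right and UXS1 to the left at both times, and SDC4 passed at 48 h.

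The tested genes with the pattern most like SDC4 over the 9 arrays, by Pearson r of log2 values, were CAPG, an actin filament capping protein (0.971), CLEC11A, a secreted lectin (0.950), and TNFRSF1A, a TNF receptor (0.950). For LUM they were KRR1, a ribosome assembly factor (0.955), TBL1XR1 (0.904) and the nucleoporin NUP54 (0.900). These are the highest values out of 4368 genes and are descriptions only, since the arrays share groups and runs. CAPG had 8.69, 8.84 and 8.73 in untreated cells, 8.08, 8.40 and 8.50 at 24 h and 7.91, 8.27 and 8.19 at 48 h. KRR1 averaged 6.91 ± 0.29 without TGFβ1, 6.53 ± 0.45 at 24 h and 7.18 ± 0.19 at 48 h (SD, n = 3 each), and its lowest arrays of the 9 were the 24 h arrays of runs 2 and 3, as for LUM.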

How the data were processed

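RNA of 9 pools of HK-2 plates, 1 pool per time and run, was hybridised to a 1-colour Affymetrix array. The deposited values are log2 values per probe set, made by the authors with GCRMA per the submitters' processing notes, which name no version. The log2 base was read from the values, whose maximum is 12.5. No further normalization was applied. GCRMA gave 1 of the 5 tested members and 3 of the 5 untested ones the same value on at least 2 arrays, as it did 31.4% of tested and 62.7% of untested genes.

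The table held 22277 probe sets, and those with 1 symbol were named, with symbols updated through RefSeq gene IDs. Groups were compared with limma 3.58.1 in R 4.3.3 (lmFit, eBayes, all 9 arrays), with Benjamini-Hochberg adjustment over 4368 genes and a threshold of 0.05; the script was tested on simulated data. Every adjusted p comes from limma. The members and gene lists were chosen with earlier results of these data known. Named by rule were the 10 members, up to 6 called genes of each list, and the 3 genes most like each of the 2 members with the smallest F test p. Other list genes named without a call, such as GPC4, CD44 and EXT1, were not chosen by this rule.

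Replicate numbers paired the arrays: array deviations from their group means had r of 0.378 to 0.662 for pairs that share a number. For pairs that differ in both number and group r was −0.526 to 0.185. Deviations cancel within a group, so a positive r within a number pulls the other r down. The closest array shared the number for 9 of 9 arrays. Replicates are separate runs, so p-values without the block measure the spread between runs within a time and leave the pairing unused. Those with the block measure the spread left after differences between runs are taken out. The number of arrays limits the precision. Alternatives changed the filter, the probe set, centring, the variance prior, the block and the arrays left out. Leaving out an array of a group not compared alters the estimate of spread and not the fold change.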

Additional observations from a re-analysis of the deposited data

How the results depend on the processing

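The count of members past the threshold at 48 h, 1 (SDC4), was the same with the replicate block, no filter, a filter of 5, the mean of all probe sets, every probe set tested, centred arrays, a variance trend and only the arrays compared, and lay between 0 and 1 when an array or run was left out. At 24 h it was 0 except with the replicate block (1, SDC4), and between 48 h and 24 h it was 0 throughout. For the F test it was 0, and 1 with the block and with a variance trend, with a range of 0 to 1 when an array or run was left out. The 4 further genes called at each time became 8 at 24 h and 10 at 48 h with the replicate block and 1 (SPOCK1) at 24 h when only the 2 groups compared were fitted, and ranged from 0 to 4 at each time when an array or run was left out. At 24 h they became 5 with a variance trend, which added TNFAIP6, and 5 with the mean of all probe sets, which added CASK. SGSH, a lysosomal sulfatase gene below the filter, joined them at 48 h with no filter. SDC4 and the 4 further genes called without the block have 1 probe set each. The mean of all probe sets and the test of every probe set therefore left their values as they were and could not check them. Among tested genes, signs changed in 4 results that had not passed the threshold. For VCAN at 48 h 3 other probe sets gave 0.027, 0.17 and 0.013, and leaving out arrays gave −0.33 to 0.13. Leaving out arrays gave −0.014 to 0.23 for SDC1 at 48 h, −0.86 to 0.027 for SDC1 between 48 h and 24 h (−0.42 with all arrays, 0.027 without the 24 h array of run 3), and −0.073 to 0.13 for SDC2 between 48 h and 24 h. The cause was not tested. Signal over background limits DCN, BGN, HSPG2, GPC1 and CSPG4, which were not tested and are not in this count of signs. Each of them also changed sign in at least 1 comparison when arrays were left out. HSPG2 at 48 h against untreated cells, for example, ranged from −0.38 to 0.25.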
